A study of Mus musculus with 14 samples.

Results

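The genes described here carry the cytostatic programme of TGF-β, the set of cell cycle regulators through which this cytokine holds epithelial cells in G1. They were chosen by name from knowledge of that programme, and 10 of the 23284 genes listed were taken: Cdkn1a, Cdkn1b, Cdkn1c, Cdkn2a, Cdkn2b, Myc, Ccnd1, Ccnd2, Ccne1 and Cdc25a. All 10 were present in both expression tables. Polyadenylated RNA was sequenced from EpH4 cells, a mouse mammary epithelial line grown in 10% fetal bovine serum, and from EpRas cells, their H-Ras-transformed derivative grown in 4% serum. Each line was left untreated or received 1 ng/ml TGF-β3 for 48 h, with 2 biological replicates in each of the 4 groups. In a further set, EpRas cells received siNC, a control siRNA, or siRNA pair 1 or 2 directed at the ETS factors Etv4 and Etv5, and each of the 3 transfections gave 1 untreated and 1 TGF-β-treated library, 6 in all. EpRas is a single derived line, so H-Ras transformation, the serum and the history of the line cannot be told apart in any comparison of EpRas with EpH4 cells.

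In normal epithelia TGF-β activates Smad transcription factors, which induce the CDK inhibitors p15 (Cdkn2b) and p21 (Cdkn1a) and repress Myc, itself a repressor of both genes. The INK4 inhibitors p15 and p16 (Cdkn2a) block CDK4 and CDK6, the partners of the D-type cyclins, whereas the CIP/KIP inhibitors p21, p27 (Cdkn1b) and p57 (Cdkn1c) block cyclin E-CDK2. Loss of this growth arrest, with other TGF-β responses retained, is a known feature of many Ras-transformed epithelial cells, and the comparison of the lines asks how far the transcripts of the arrest respond in each.

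Levels are given as FPKM, read counts scaled to exon length and sequencing depth. A gene is said to have risen or fallen where limma, run on log2(FPKM + 1) over all 9100 genes that reached 5 FPKM in at least 1 untransfected library, gave a Benjamini-Hochberg adjusted p under 0.05. In those libraries 7 of the 10 genes passed the filter. Total depth was not given. Relative depth, read from the steps between low FPKM values, differed 2.23-fold between the deepest and the shallowest untransfected library and 1.74-fold among the transfected ones. Replicates correlated with r from 0.912 in TGF-β-treated EpRas cells to 0.982 in TGF-β-treated EpH4 cells, so the treated EpRas group was the least reproducible. TGF-β had acted in both lines. In EpH4 cells 7 of 8 tested direct or feedback targets rose, where 6.48% of all tested genes rose. In EpRas cells 3 of 8 rose, where 3.82% were called in either direction. Of the 7, 1 (Itgb6) was over the filter in treated EpH4 cells alone, so its call carries no weight. In a limma test of the effect in EpRas minus that in EpH4 cells, none of the 8 was called, against 0.802% of all genes. Of the 8, 6 (Itgb6 included) had an unadjusted p under 0.05 there, against 10.9% of all genes. The median difference of the 8 was −0.79 on the log2 scale, beside −0.03 over all genes. Pmepa1, which encodes a feedback inhibitor of TGF-β signalling, read 68.4 and 77.7 FPKM in untreated and 317 and 299 FPKM in treated EpH4 cells, and 75.3 and 99.9 against 172 and 225 FPKM in EpRas cells. Of 8 epithelial markers, Krt14 was at 62.2 to 851 FPKM in every untransfected library, Krt19 was at 0 in all 4 libraries of EpH4 cells but read 17.1 to 37.4 FPKM in those of EpRas cells, and Krt5 was at 0 in 7 of the 8. With TGF-β, Krt14 and Cdh1 rose in EpH4 cells (1.199 and 0.793 on the log2 scale, adjusted p = 0.00409 and 0.0210), and Krt7 and Krt14 fell in EpRas cells (−1.10 and −0.78, adjusted p = 0.0370 and 0.0420). Between the untreated lines Krt14 and Cdh1, 2 of 7 tested, were lower in EpRas cells (−1.69 and −0.96, adjusted p = 0.000545 and 0.00633), where 9.11% of all genes were called lower. Between the treated lines Krt14, Epcam, Krt7 and Cdh1 were lower, 4 of 7 (−3.67, −2.42, −2.38 and −2.15, adjusted p from 1.35e-05 to 0.00453), where 12.3% of all genes were called lower. These markers were lower in the same libraries in which Cdkn1b and Ccnd2 were lower. Krt19, also among the 7, went the other way in both comparisons, but it was over the filter in EpRas libraries alone and is given no test. The summed level of the 8 markers was 4843 and 6166 FPKM in untreated and 9023 and 8516 FPKM in treated EpH4 cells, then 5151 and 4065 FPKM in untreated and 2439 and 4096 FPKM in treated EpRas cells, and its part in the results below was not tested. Of 10 markers of leukocytes, endothelium, adipocytes and erythroid cells, 6 to 8 were listed at 0 in each of these libraries, with Ptprc, Pecam1, Plin1, Hba-a1 and Hbb-b1 at 0 in all 8. Their summed level was 2.24 and 1.63 FPKM in untreated and 7.004 and 8.96 FPKM in treated EpH4 cells, and 4.50 and 5.25 against 8.53 and 5.91 FPKM in EpRas cells. Csf1r, a macrophage receptor gene of this list, read 0.185 and 0.103 FPKM in untreated and 6.23 and 5.74 FPKM in treated EpH4 cells, the libraries in which Cdkn1a rose, and 0.685 and 0.368 against 1.13 and 1.53 FPKM in EpRas cells. Csf1r passed the filter only through treated EpH4 cells, so these are given as values with no test. In the transfected EpRas cells described below it was over the filter in a TGF-β-treated library alone and is likewise given no test, and the part of these markers in the results was not tested.

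Of the 5 CDK inhibitor genes, 3 were not detectable at this depth in either line. Cdkn2b, encoding p15 (chr4:89306289-89311032, mm10), the inhibitor most closely tied to TGF-β arrest, was listed at 0 FPKM in all 14 libraries, with or without TGF-β. Cdkn2a, which encodes p16 and p19ARF (chr4:89274473-89294619), and Cdkn1c, which encodes p57 (chr7:143458339-143461050), were also listed at 0 in all 14. Such a listing was common, since 6948 genes (29.8%) were at 0 in every library, and none of 10 housekeeping genes was at 0 in any. From 4421 genes for which the value of a single read could be recovered, 3 reads of the 1390-base Cdkn2b transcript would correspond to 0.301 FPKM in the deepest and 0.669 FPKM in the shallowest untransfected library, so a level below these limits was not detectable. The same limits were 0.221 and 0.493 FPKM for the 1888-base transcript of Cdkn1c and 0.491 and 1.09 FPKM for the 852-base transcript of Cdkn2a, and they cover counting error only.

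The genes around the INK4 pair did not share that state on both sides. Cdkn2a and Cdkn2b lie 11.7 kb apart on chromosome 4. Mtap, a purine salvage enzyme gene 93.4 kb from Cdkn2a, was at 48.5 to 116 FPKM in the untransfected and 89.8 to 124 FPKM in the transfected libraries. Dmrta1, on the side of Cdkn2b, was at 0 in all of them. Near Cdkn1c on chromosome 7, Nap1l4 was at 65.3 to 84.3 FPKM and Phlda2, another gene of that imprinted region, at 7.99 to 63.1 FPKM in the untransfected libraries. In the untransfected libraries a level of p15, p16 or p57 transcripts below the limits given above, with or without TGF-β, was not detectable, and no such limit was computed for the transfected ones.

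The promoters of Cdkn2b and Cdkn1a, on which Smads are known to act, and of Cdkn1b are shown because Cdkn2b stayed at 0 while Cdkn1a and Cdkn1b were expressed. Each run covers 250 bases before to 50 bases after a transcription start in the RefSeq annotation of GRCm38 (mm10), written 5′ to 3′ on the strand of the gene. Capitals mark matches on either strand to CAGAC, a form of the Smad binding element, and to GGGCGG, the core of an Sp1 site. TTTNNCGC, the core of an E2F site, the E-box CACGTG and the TATA box TATAAA were also searched and were found in none of the runs printed. Cdkn1a has 2 annotated starts, and its FPKM sums over both.
Cdkn2b, chr4:89310983-89311282, minus strand: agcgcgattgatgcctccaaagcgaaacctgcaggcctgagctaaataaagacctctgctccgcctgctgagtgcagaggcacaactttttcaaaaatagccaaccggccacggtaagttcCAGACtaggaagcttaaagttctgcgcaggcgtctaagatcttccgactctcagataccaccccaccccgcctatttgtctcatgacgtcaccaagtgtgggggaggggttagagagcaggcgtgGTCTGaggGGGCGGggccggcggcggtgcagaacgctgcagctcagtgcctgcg
Cdkn1a first start, chr17:29090729-29091028, plus strand: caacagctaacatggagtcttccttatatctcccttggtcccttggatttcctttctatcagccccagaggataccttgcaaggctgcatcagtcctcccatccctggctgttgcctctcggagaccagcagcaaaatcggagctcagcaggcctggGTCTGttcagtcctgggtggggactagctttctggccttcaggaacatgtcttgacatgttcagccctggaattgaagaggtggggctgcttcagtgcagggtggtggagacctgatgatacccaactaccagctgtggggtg
Cdkn1a second start, chr17:29093519-29093818, plus strand: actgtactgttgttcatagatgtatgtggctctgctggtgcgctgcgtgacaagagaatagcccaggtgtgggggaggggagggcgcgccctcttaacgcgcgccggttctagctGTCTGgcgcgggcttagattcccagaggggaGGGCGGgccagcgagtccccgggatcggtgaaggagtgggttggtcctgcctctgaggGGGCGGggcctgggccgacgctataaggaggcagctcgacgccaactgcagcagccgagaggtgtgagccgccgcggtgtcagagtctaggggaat
Cdkn1b, chr6:134920151-134920450, plus strand: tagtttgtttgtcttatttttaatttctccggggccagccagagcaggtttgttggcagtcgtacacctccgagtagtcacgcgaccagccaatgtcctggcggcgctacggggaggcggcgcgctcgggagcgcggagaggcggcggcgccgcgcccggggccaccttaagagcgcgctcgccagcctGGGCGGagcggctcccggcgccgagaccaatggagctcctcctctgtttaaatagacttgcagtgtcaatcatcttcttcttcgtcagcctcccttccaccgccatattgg
Cdkn2b held 2 CAGAC and 1 GGGCGG match, and the second Cdkn1a start held 1 CAGAC and 2 GGGCGG matches. The first Cdkn1a start held 1 CAGAC match and no GGGCGG match, and Cdkn1b held 1 GGGCGG match alone. Of 32851 promoters of the same length, 49.6% held CAGAC, 35.7% GGGCGG, 5.17% TTTNNCGC, 7.15% CACGTG and 13.6% TATAAA, and both the undetected Cdkn2b and the expressed Cdkn1a held the first 2 of these. No match to a motif says only that these letters are not in the window.

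Cdkn1a (chr17:29090986-29100722), which encodes p21, rose in EpH4 cells treated with TGF-β. It read 76.4 and 72.9 FPKM in the untreated and 124.8 and 119.6 FPKM in the treated libraries, so the groups lay well apart. The means were 74.6 ± 2.50 and 122 ± 3.69 FPKM (SD, n = 2), a 1.64-fold difference, with a log2 fold change of 0.70 (SE 0.16) and a limma adjusted p of 0.0387. In EpRas cells the gene read 98.1 and 99.6 FPKM without and 105.8 and 135.1 FPKM with TGF-β. Both treated EpRas libraries were above both untreated ones, with an SD of 20.7 FPKM in the treated and 1.05 FPKM in the untreated group. The log2 fold change of 0.27 (SE 0.16) did not pass the test (adjusted p = 0.490), and it was 0.45 without treated EpRas replicate 1 and 0.10 without replicate 2, so 1 library decided its size. Untreated EpRas cells stood between untreated and treated EpH4 cells, with a log2 difference from untreated EpH4 of 0.40 that did not pass either (adjusted p = 0.138). With TGF-β the lines overlapped, and the log2 difference was −0.03 with a 95% interval from −0.41 to 0.35. The call in EpH4 cells was lost when any 1 of the 4 EpH4 or 2 untreated EpRas libraries was left out (adjusted p up to 0.249) and with the replicate number as a block (adjusted p = 0.0853), while the fold change stayed between 0.67 and 0.74 over all alternatives.

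**Figure D1:**
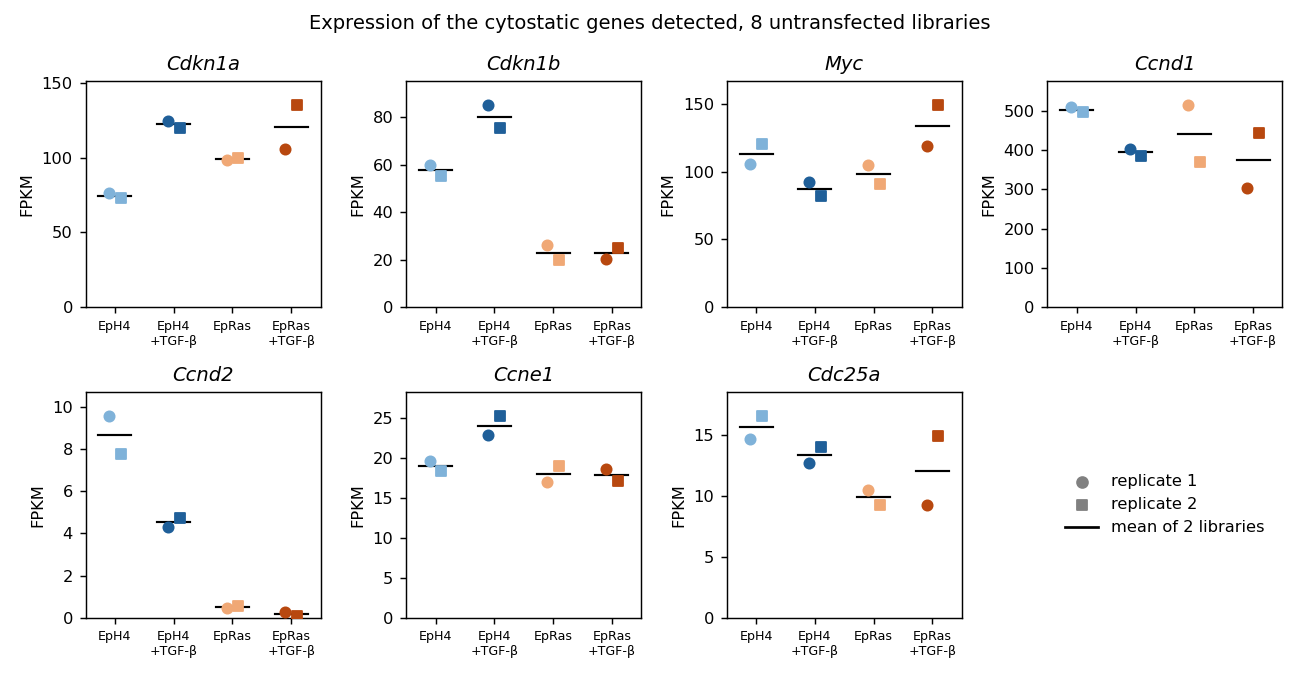
FPKM of the 7 cytostatic genes that passed the filter, in each of the 8 untransfected libraries (circles, replicate 1; squares, replicate 2; bars, mean of 2 libraries; every vertical axis starts at 0). Cdkn1b and Ccnd2 are lower in all 4 EpRas libraries than in all 4 EpH4 libraries, and treated libraries lie below their controls for Myc in EpH4 cells and above them in EpRas cells.

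Cdkn1b (chr6:134920401-134925525), which encodes p27, differed mainly between the lines. It read 59.8 and 55.3 FPKM in untreated EpH4 cells and 26.1 and 19.8 FPKM in untreated EpRas cells, with no overlap. The gene was lower in EpRas cells, with a log2 difference of −1.30 (SE 0.19, limma adjusted p = 0.00416), which was 2.51-fold between the means. With TGF-β it read 85.0 and 75.4 FPKM in EpH4 cells and 20.4 and 24.8 FPKM in EpRas cells, and the gap was −1.79 (SE 0.19, adjusted p = 0.000683) or 3.55-fold. Whole reads could be recovered for this gene, and 1745 reads in untreated EpH4 against 496 in untreated EpRas cells gave a depth-corrected ratio of 2.60 with a counting interval of 2.35 to 2.88. Both differences kept their call under all 16 alternatives. Within EpH4 cells the treated libraries lay above the untreated ones, 80.2 ± 6.78 against 57.6 ± 3.17 FPKM (SD, n = 2), yet the log2 fold change of 0.47 did not pass the test over all genes (adjusted p = 0.182). In EpRas cells the TGF-β groups overlapped, with a log2 fold change of −0.01 and a 95% interval from −0.46 to 0.43. Because whole cultures were lysed, fewer cells of a given state and less RNA per cell cannot be told apart for this or any gene here.

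The 2 detected inhibitors thus made up different mixtures in the lines. p27 transcripts were 43.9% and 43.2% of the summed Cdkn1a and Cdkn1b FPKM in untreated EpH4 cells, 40.5% and 38.7% with TGF-β, 21.0% and 16.6% in untreated EpRas cells and 16.2% and 15.5% with TGF-β. The EpRas shares lay below all EpH4 shares. Set against Ccnd1, the most abundant cyclin among the genes, the inhibitor sum was 26.7% and 25.8% in untreated and 52.0% and 50.6% in treated EpH4 cells. The same ratio was 24.2% and 32.4% in untreated and 41.5% and 36.0% in treated EpRas cells, so the treated libraries were above the untreated ones in each line. These ratios are descriptions of FPKM, which is scaled per length, and carry no test.

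Myc (chr15:61985341-61990361), the growth-promoting transcription factor whose repression is a part of the arrest, lay on opposite sides of its controls with TGF-β in the lines, though neither change passed the test. In EpH4 cells it read 106.1 and 120.5 FPKM without and 92.4 and 82.0 FPKM with TGF-β, so both treated libraries were lower. In EpRas cells it read 105.1 and 91.4 FPKM without and 119.1 and 149.3 FPKM with TGF-β, so both treated libraries were higher. The log2 fold changes were −0.37 (SE 0.18, adjusted p = 0.257) in EpH4 and 0.44 (SE 0.18, adjusted p = 0.292) in EpRas cells, and neither passed the limma test. The difference between these effects was 0.81 (SE 0.25, unadjusted p = 0.0137), which did not pass over all genes (adjusted p = 0.295). Among all genes tested, 4.63% had groups that did not overlap in each line and moved in opposite directions. Without TGF-β the log2 difference between the lines was −0.20 (95% interval −0.62 to 0.21, adjusted p = 0.477). With TGF-β Myc was higher in EpRas cells, 134 ± 21.4 against 87.2 ± 7.32 FPKM (SD, n = 2), a log2 difference of 0.61 (adjusted p = 0.0493). That call lay at the threshold and held in 5 of 16 alternatives, with adjusted p from 0.0351 to 0.240. The settings that lost it included leaving out either treated EpH4 library, treated EpRas replicate 2 or any 1 of the 4 untreated libraries. They also included the replicate number as a block, and not all of them are named here.

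The D-type cyclins bind CDK4 and CDK6 and carry mitogenic signals into the cell cycle. Ccnd1 (chr7:144929931-144939925) was the highest of the 10 genes in every library. It read 510 and 496 FPKM in untreated and 404 and 385 FPKM in treated EpH4 cells, with no overlap, and the log2 fold change of −0.35 did not pass (adjusted p = 0.416). In EpRas cells the replicates were wide apart, 514 and 369 FPKM without and 304 and 444 FPKM with TGF-β, and the groups overlapped. From 5511 to 14197 reads lay behind each value, so counting error was 0.839% to 1.35% per library, while the replicates of the EpRas groups had a coefficient of variation of 23.3% and 26.4%. The log2 fold change in EpRas cells was −0.24 with a 95% interval from −0.79 to 0.30.

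Ccnd2 (chr6:127125709-127212419, a locus wider than the RefSeq gene), the other D-type cyclin among the genes, was far lower in EpRas than in EpH4 cells. It read 9.57 and 7.78 FPKM in untreated and 4.32 and 4.73 FPKM in treated EpH4 cells, and 0.452, 0.540, 0.249 and 0.0917 FPKM in the EpRas libraries. All EpRas values lay below all EpH4 values. Recovered reads numbered 313 and 345 in untreated EpH4 cells against 9 and 20 in untreated EpRas cells, a depth-corrected ratio of 16.8 with a counting interval of 11.6 to 25.3, and with TGF-β the ratio was 25.3 (13.1 to 55.9). On the log2(FPKM + 1) scale, which understates the change of low genes, the difference was −2.69 (SE 0.16, limma adjusted p = 6.56e-05) without and −2.24 (SE 0.16, adjusted p = 0.000123) with TGF-β, and both calls held under all 16 alternatives. The size followed the pseudocount, being −3.88 and −4.16 with 0.1 FPKM and −1.31 and −0.88 with 5 FPKM, without and with TGF-β. With TGF-β, Ccnd2 fell by 0.80 on the log2 scale in EpH4 cells (SE 0.16, adjusted p = 0.0242), with a read ratio of 1.87 (1.62 to 2.16) for untreated over treated cells. This call held in 9 of 16 alternatives and was lost without any 1 of the 4 EpH4 libraries, with adjusted p from 0.0581 to 0.188, with a pseudocount of 0.1 FPKM (adjusted p = 0.114), with a mean-variance trend (0.0807) and with the replicate block (0.0572). In EpRas cells 29 reads without and 9 with TGF-β gave a ratio of 2.82 (1.30 to 6.77) and a log2 fold change of −0.36 (adjusted p = 0.355). Ccnd2 passed the filter on low values only through untreated EpH4 cells, so a difference from them was a condition of its entry to the test, and its p-values carry no weight beyond the values themselves.

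Ccne1 (chr7:38097984-38107490) and Cdc25a (chr9:109875579-109893890) act at the next step, as the cyclin partner of CDK2 and the phosphatase that activates it. Ccne1 read 19.6 and 18.5 FPKM in untreated and 22.9 and 25.3 FPKM in treated EpH4 cells, 17.0 and 19.0 FPKM in untreated and 18.7 and 17.2 FPKM in treated EpRas cells. The treated EpH4 libraries stood above all others, but neither the log2 fold change of 0.32 in EpH4 cells (adjusted p = 0.238) nor that of −0.01 in EpRas cells passed. Cdc25a read 14.7 and 16.6 FPKM in untreated and 12.7 and 14.0 FPKM in treated EpH4 cells, then 10.5 and 9.25 FPKM in untreated and 9.27 and 14.9 FPKM in treated EpRas cells. The untreated lines did not overlap, and the log2 difference of −0.61 did not pass (adjusted p = 0.105). It did pass when either treated EpRas library was left out (adjusted p = 0.0287).

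**Figure D2:**
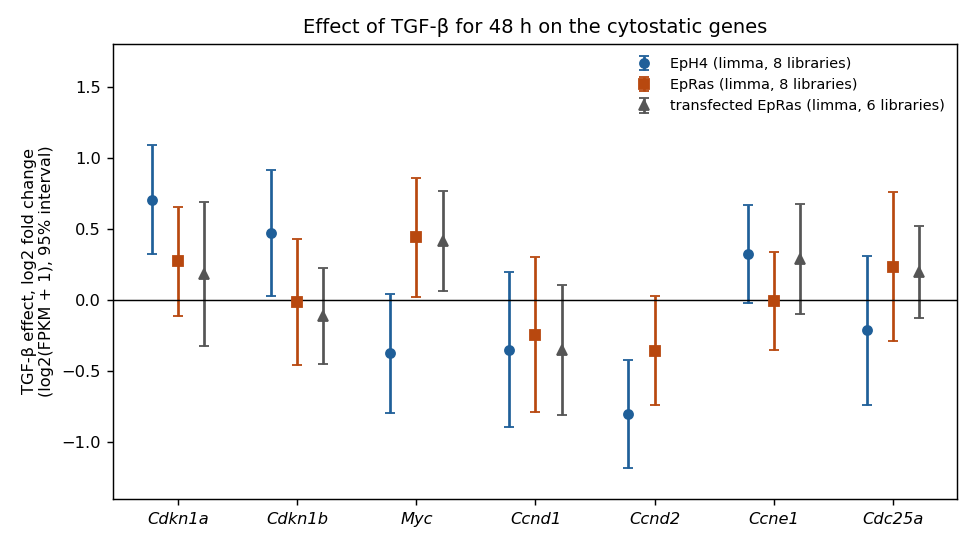
Log2 fold change with TGF-β on the log2(FPKM + 1) scale for each cytostatic gene tested, with 95% limma intervals, in EpH4 cells (circles), EpRas cells (squares) and transfected EpRas cells (triangles, where Ccnd2 was under the filter). Only Cdkn1a and Ccnd2 in EpH4 cells pass at an adjusted p under 0.05. The EpH4 and EpRas intervals overlap for every gene shown, for Myc only from 0.022 to 0.044, and such overlap is not a test of the difference between the lines.

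Over the whole set, TGF-β raised 1 gene (Cdkn1a) and lowered 1 (Ccnd2) of the 7 tested in EpH4 cells, against 9.40% of all tested genes called in either direction, 6.48% higher and 2.91% lower. Ccnd2 could enter this count and those between the lines only by being high in untreated EpH4 cells, so its calls are given as values and no weight rests on the counts that include it. In EpRas cells limma called 0 of 7, against 3.82% of all tested genes, and 1 gene (Myc) had an unadjusted p under 0.05, against 15.8% of all genes. Between the untreated lines 2 of 7 genes were called, Ccnd2 and Cdkn1b, both lower in EpRas cells, where 17.6% of all genes were called, 8.45% higher and 9.11% lower. Between the treated lines 3 of 7 were called, the same 2 genes lower and Myc higher, where 21.3% of all genes were called, 8.92% higher and 12.3% lower. In the interaction test of the TGF-β effects in EpRas and EpH4 cells limma called 0 of 7, where 0.802% of all genes passed, and 1 (Myc) had an unadjusted p under 0.05, against 10.9% of all genes. For Cdkn1a the interaction was −0.43 with a 95% interval from −0.97 to 0.11, which holds both an equal response in the lines and the lack of any response in EpRas cells. The treated and untreated groups did not overlap for 7 of 7 tested genes in EpH4 cells, where 60.6% of all genes did not overlap, and for 3 of 7 in EpRas cells, where the share was 39.4%. Between the lines, 5 of 7 did not overlap without and 4 of 7 with TGF-β, where the shares over all genes were 61.0% and 63.0%. The medians of the 7 log2 fold changes were −0.21 in EpH4 and −0.01 in EpRas cells, beside −0.02 over all genes in each line.

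The rest of the G1 machinery was examined in lists drawn from general knowledge. Of 11 tested further G1 regulators, 3 fell and none rose with TGF-β in EpH4 cells: Cdk6, the kinase partner of D-type cyclins, by 1.21 on the log2 scale (adjusted p = 0.0157), Cdkn2c, the INK4 inhibitor p18, by 1.04 (adjusted p = 0.0271) and the phosphatase gene Cdc25b by 0.70 (adjusted p = 0.0432), where 2.91% of all genes fell and 6.48% rose. Cdk6 read 10.4 and 15.9 FPKM in untreated and 4.47 and 5.59 FPKM in treated EpH4 cells, against 10.1 to 12.0 FPKM in the 4 EpRas libraries. None of the 11 passed in EpRas cells, against 3.82% of all genes, and 3 had an unadjusted p under 0.05, against 15.8%, and none passed the interaction test, against 0.802%. Between the lines, Cdkn2d, encoding p19INK4d, was at 12.8 to 15.3 FPKM in EpH4 and 24.8 to 37.1 FPKM in EpRas cells, a log2 difference of 0.98 without (adjusted p = 0.0169) and 1.08 with TGF-β (adjusted p = 0.00884). Cdkn2c read 21.3 and 22.2 FPKM in untreated EpH4 and 9.58 and 13.1 FPKM in untreated EpRas cells, a log2 difference of −0.90 (adjusted p = 0.02995), and with TGF-β the difference of −0.49 did not pass (adjusted p = 0.150). Cdc25b was higher in EpRas cells by 0.74 without and 0.84 with TGF-β (adjusted p = 0.0231 and 0.0113), and with TGF-β Cdk6 was higher too (1.05, adjusted p = 0.0136).

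Of 11 tested retinoblastoma and E2F genes, none passed with TGF-β in either line, against 9.40% of all genes called in EpH4 and 3.82% in EpRas cells, and 2 in each had an unadjusted p under 0.05, against 23.9% and 15.8% of all genes. Between the lines, the repressor E2f8 was higher in EpRas cells by 0.89 without and 1.01 with TGF-β (adjusted p = 0.00711 and 0.00341). E2f6 was lower without TGF-β (−0.77, adjusted p = 0.0405), and with TGF-β E2f5 was higher (0.82, adjusted p = 0.0329) while E2f1 and Rbl1, encoding p107, were lower (−0.70 and −0.58, adjusted p = 0.0443 and 0.0453). In the Max network, which opposes Myc through the Mxd proteins, Mxd4 rose with TGF-β in EpH4 cells from 2.26 and 2.83 to 8.45 and 6.81 FPKM (1.28, adjusted p = 0.0134), 1 of 8 genes called, where 6.48% of all genes rose. None of the 8 passed in EpRas cells, against 3.82% of all genes, where 3 had an unadjusted p under 0.05 and Mxd4 went from 6.86 and 4.46 to 12.2 and 10.2 FPKM (0.89, adjusted p = 0.0883). The effects on Mxd4 were not shown to differ between the lines (−0.39, interaction adjusted p = 0.688). Mxd4 and Mxi1, both Myc antagonists, were already higher in untreated EpRas cells (0.89 and 0.84, adjusted p = 0.0330 and 0.0379), where Mlxip was lower (−0.72, adjusted p = 0.0120), and with TGF-β Mxi1 was higher by 1.19 (adjusted p = 0.00805).

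Among Smad partners and other genes tied to the arrest, Id2, an inhibitor of differentiation, fell with TGF-β in both lines. It read 14.5 and 20.4 FPKM in untreated and 6.61 and 5.33 FPKM in treated EpH4 cells, and 9.40 and 8.28 against 1.85 and 0.954 FPKM in EpRas cells. These falls were −1.39 (adjusted p = 0.0142) and −2.06 on the log2 scale (adjusted p = 0.00478). Id1 fell by 1.45 in EpRas cells (adjusted p = 0.0255), from 111 and 89.4 to 29.4 and 43.9 FPKM, and was at 80.6 and 111 against 71.2 and 86.0 FPKM in EpH4 cells (−0.27, adjusted p = 0.581). The effects on Id1 were not shown to differ between the lines (−1.18, interaction adjusted p = 0.287). With TGF-β, Id1, Id2 and Id3 were all lower in EpRas than in EpH4 cells (−1.10, −1.56 and −2.39, adjusted p = 0.0211, 0.00436 and 0.0121), and untreated EpRas cells were lower for Id2 (−0.89, adjusted p = 0.0455). Foxo1, a forkhead partner of Smads at the Cdkn1a gene, read 4.39 and 3.97 FPKM in untreated and 9.79 and 7.59 FPKM in treated EpH4 cells, and 3.81 and 3.79 against 6.27 and 5.63 FPKM in EpRas cells. It was over the filter in treated libraries alone, so a level above the untreated ones was a condition of its entry and no test is given. Of 12 tested genes, a number that includes Foxo1, 1 was called lower in EpH4 cells, where 2.91% of all genes fell. In EpRas cells 2 of the 12 were called, both lower, where 3.82% of all genes were called in either direction.

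**Figure D3:**
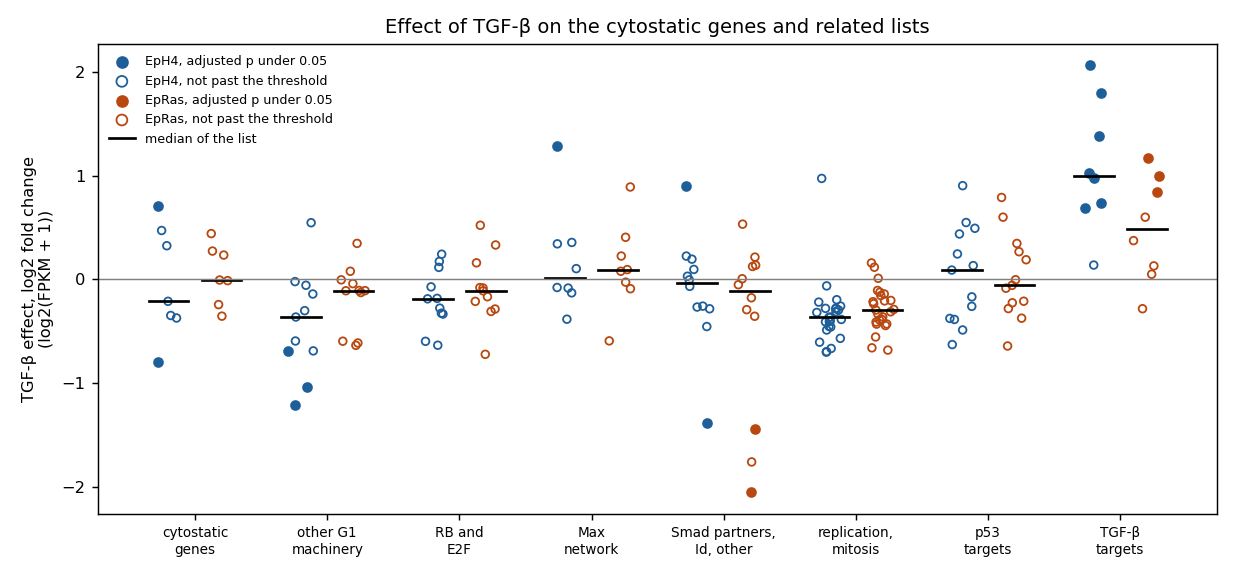
Log2 fold change with TGF-β on the log2(FPKM + 1) scale for single genes of 8 lists, in EpH4 (blue) and EpRas cells (orange); filled points pass at an adjusted p under 0.05 and bars are list medians. The TGF-β targets sit highest in both lines with medians of 1.00 and 0.49, whereas the replication and mitosis genes have medians of −0.37 and −0.30 with no gene past the threshold.

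Transcripts of DNA replication and mitosis were used as a read of cycling cells. None of 25 passed with TGF-β in either line, against 9.40% of all genes in EpH4 and 3.82% in EpRas cells. An unadjusted p under 0.05 was reached by 11 in EpH4 cells, where 23.9% of all genes did so, and by 7 in EpRas cells, where 15.8% did, and the median log2 fold changes were −0.37 and −0.30 beside −0.02 over all genes. These medians were measured in the same EpH4 libraries in which Cdkn1a rose and Ccnd2 fell, and the part of these genes in that result was not tested. Untreated EpRas cells had lower Mcm2, Mcm3, Mcm7 and Mcm4, subunits of the replicative helicase (−0.87, −0.69, −0.66 and −0.62, adjusted p from 0.0109 to 0.0289). These 4 were the only genes of the 25 called, where 9.11% of all genes were called lower and 8.45% higher. Mcm5 and Mcm6, of the same helicase, were not called (−0.14 and −0.31, adjusted p = 0.544 and 0.266). With TGF-β, Mcm2 and Mcm7 were lower (−0.77 and −0.58, adjusted p = 0.0137 and 0.0233) and Pcna was higher (0.57, adjusted p = 0.0481). No other gene of the 25 was called there, where 12.3% of all genes were called lower and 8.92% higher. Cdkn1a is also induced by p53. Of 13 other p53 targets tested, none passed with TGF-β in either line, against 9.40% of all genes in EpH4 and 3.82% in EpRas cells. In each line 4 had an unadjusted p under 0.05, against 23.9% and 15.8% of all genes. The part of p53 in the Cdkn1a values was not tested. Plk2 was lower in EpRas cells (−1.36 without and −1.31 with TGF-β on the log2 scale, adjusted p = 0.00272 and 0.00237). Fas read 6.43 and 8.15 FPKM in treated EpH4 cells and 1.85 and 1.79 FPKM in treated EpRas cells, and no test is given because it was over the filter in EpH4 libraries alone.

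The transfected EpRas libraries gave a second look at the TGF-β response, in a table normalised separately. The limma fit over 9094 genes held a term for the transfection. Its effects average siNC and both siRNA pairs against Etv4 and Etv5, so they are not those of siNC cells alone. All 6 genes tested missed the threshold, against 4.17% of all genes called, and 1 (Myc) had an unadjusted p under 0.05, against 21.9% of all genes. Myc read 103, 98.6 and 88.0 FPKM in the untreated and 121, 134 and 131 FPKM in the treated libraries of siNC and the siRNA pairs 1 and 2. It was higher with TGF-β in 3 of 3 transfections, where 44.2% of all genes moved in the same direction in 3 of 3, with a log2 fold change of 0.41 and a 95% interval from 0.06 to 0.77 (adjusted p = 0.173). Cdkn1a read 163, 224 and 137 FPKM without and 223, 177 and 186 FPKM with TGF-β, so it was higher with TGF-β after siNC and pair 2 and lower after pair 1, and the log2 fold change of 0.18 had an interval from −0.32 to 0.69. Ccnd1 read 647, 454 and 441 FPKM without and 518, 272 and 443 FPKM with TGF-β (log2 fold change −0.35, adjusted p = 0.340). Cdc25a was higher with TGF-β in 3 of 3 transfections, by 0.13 to 0.26 on the log2 scale, and did not pass (adjusted p = 0.439). Ccne1 was higher in 3 of 3 as well, by 0.42, 0.0028 and 0.45 after siNC, pair 1 and pair 2 (log2 fold change 0.29, adjusted p = 0.352). Cdkn1b stayed at 18.5 to 28.8 FPKM and Ccnd2 at 0.250 to 0.427 FPKM in the 6 libraries, and the latter was under the filter. In these libraries 4 of 7 tested TGF-β targets rose, against 4.17% of all genes called, Bhlhe40, Skil, Smad7 and Pmepa1 (1.49, 1.17, 1.05 and 1.00 on the log2 scale, adjusted p from 0.0160 to 0.0309). The ubiquitin ligase gene Fbxw7, whose product targets cyclin E and Myc for degradation, rose by 0.79 (adjusted p = 0.0389), Perp fell by 0.89 (adjusted p = 0.0285) and Rrm2 rose by 1.74 (adjusted p = 0.04998), a gene that read 376 and 74.0 FPKM in the untreated untransfected EpRas libraries. None of these 7 calls held without the filter on low values, where 1 gene was called over all genes in place of 379.

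**Figure D4:**
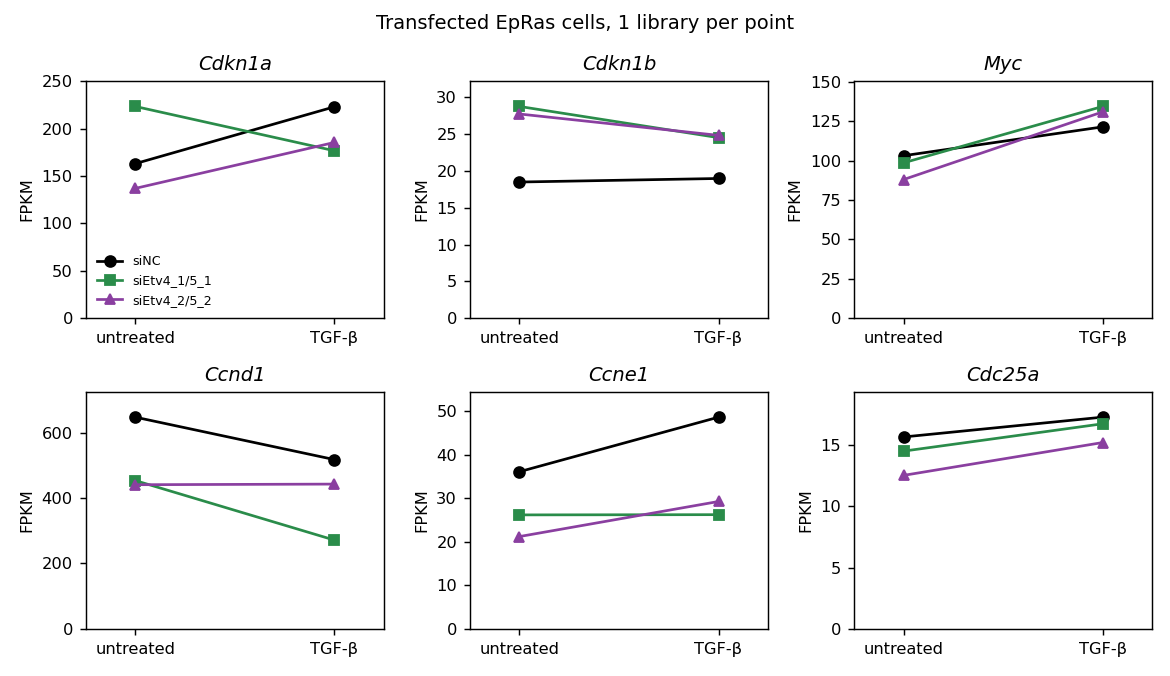
FPKM of the 6 cytostatic genes tested in transfected EpRas cells, with and without TGF-β (circles, siNC; squares, siRNA pair 1; triangles, siRNA pair 2; 1 library per point, every vertical axis starts at 0). Myc, Cdc25a and Ccne1 are higher with TGF-β in all 3 transfections (Ccne1 by 0.0028 on the log2 scale after pair 1), and Ccne1 is lower and Cdkn1b higher after both siRNA pairs than after siNC, as 29.5% of all genes also do not overlap there.

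Knockdown of Etv4 and Etv5 was read over the same 6 libraries, siNC against both pairs, with TGF-β as a term. Etv4 was at 20.2% and 48.5% and Etv5 at 18.3% and 14.2% of the siNC level after pairs 1 and 2 in untreated cells. Among the cytostatic genes 0 of 6 passed, against 2.12% of all genes called, and 3 had an unadjusted p under 0.05, against 22.7% of all genes. Ccne1 read 36.1 and 48.7 FPKM after siNC, 26.2 and 26.3 FPKM after pair 1 and 21.2 and 29.3 FPKM after pair 2, in untreated and treated cells. All knockdown values lay below both control values, with a log2 difference of −0.69 (95% interval −1.09 to −0.29, limma adjusted p = 0.0874). Cdkn1b read 18.5 and 19.0 FPKM after siNC, 28.8 and 24.5 FPKM after pair 1 and 27.8 and 24.9 FPKM after pair 2, so all knockdown values lay above the controls (log2 difference 0.47, 95% interval 0.12 to 0.82, adjusted p = 0.134). Knockdown and control libraries did not overlap for these 2 genes and Ccnd1, 3 of the 6 tested, where 29.5% of all genes did not overlap. Ccnd1 was at 70.1% and 68.1% of siNC in untreated and 52.5% and 85.5% in treated cells (−0.55, adjusted p = 0.209). With 1 library per transfection and treatment, the siRNA pairs and the treated and untreated libraries stood in for replicates of the knockdown. The siNC control was repeated only as its own untreated and treated library. These intervals and p-values therefore do not measure the spread between repeats of a transfection. The replication and mitosis genes had a median of 0.38 in this comparison, with 0 of 25 called and 11 at an unadjusted p under 0.05, against 22.7% of all genes, and their part in the values of Ccne1 and Cdkn1b was not tested. Of 15 p53 targets tested none was called other than Trp53inp1, which was over the filter after siNC alone and is given no test, and 5 had an unadjusted p under 0.05, against 22.7% of all genes.

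The genes with the pattern most like a member were found by Pearson correlation of log2(FPKM + 1) over the 8 untransfected libraries, which share their groups, so r is a description only. Arid5a (r = 0.984), Matn2 (r = 0.981) and Herpud1 (r = 0.981) were nearest to Cdkn1a. 2810021B07Rik (r = 0.952), Nars2 (r = 0.925) and Tmem93 (r = 0.922) were nearest to Myc, and Galk1 (r = 0.973), Abhd11 (r = 0.972) and Rbm38 (r = 0.972) to Ccnd1. Cdkn2b, at 0 in every library, had no pattern to compare.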

How the data were processed

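Gene expression was measured by directional Ion Proton sequencing of polyadenylated RNA from 14 libraries, in 2 tables processed independently. Per the submitters' processing notes, reads were aligned to mm10 with TopHat2 2.0.11 (Bowtie2 listed as 2.2.2.2), and the deposited FPKM values, 1 per gene and library, were made by the authors with Cuffdiff of Cufflinks 2.2.0. Total read numbers were not given in the sources used here, so absolute depth is unknown. Relative depth, and whole reads for Cdkn1b, Ccnd1, Ccnd2, Ccne1 and Cdc25a, were recovered from the steps between low FPKM values (tolerance 0.03 of a read). Ratios of reads carry 95% intervals for counting error only.

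Values were taken to log2(FPKM + 1), genes were kept where the highest library reached 5 FPKM, and genes without an OK status in a table (3 and 2 of 23284) were left out. Tests were made within each table with limma 3.58.1 in R 4.3.3, over all genes kept, with Benjamini-Hochberg adjustment at 0.05; the 8 untransfected libraries shared 1 estimate of the spread. The labels give a replicate number alone and the study's methods speak of biological replicates, so p-values measure the spread between these libraries. The script was tested on simulated data with known changes. All 10 genes were named, and from each other list up to 4 genes per comparison with the largest change past the threshold. The genes, lists and tests were chosen with earlier results of these data known. Some items are not reported here. Promoter entries matched 6 of the 10 genes. Alternatives covered the pseudocount, the filter, scaling, a mean-variance trend, a replicate block, single libraries left out, 2-group fits and Tukey-Kramer tests on FPKM.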

Additional observations from a re-analysis of the deposited data

Results flagged for a closer look

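Myc was picked out because every treated library of one line lay on the opposite side of its controls from those of the other line. The same pattern was found for 4.63% of all tested genes. Myc was lower with TGF-β in 2 of 2 EpH4 libraries and higher in 2 of 2 EpRas libraries. Its log2 fold change in EpRas cells exceeded that in EpH4 cells by 0.81 (SE 0.25, limma adjusted p = 0.295), a size taken from the values that picked it out. The difference did not pass the test over all genes, and over the alternatives it ran from 0.65 to 0.98 with adjusted p from 0.189 to 0.713.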

How the results depend on the processing

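Over all alternatives, 617 fold changes of the cytostatic genes kept their direction and side of the threshold, 25 fell short of it, 3 passed it and 16 changed sign, and the cause was not tested. The number of cytostatic genes called for TGF-β in EpH4 cells was 2 as reported, 1 with a pseudocount of 0.1 FPKM and 1 with a mean-variance trend (Cdkn1a in each), and 0 to 2 with single libraries left out. With the replicate block it was 0 (Cdkn1a adjusted p = 0.0853, Ccnd2 adjusted p = 0.0572), and Myc between the treated lines was lost as well (adjusted p = 0.0919), with no other change to a call of a cytostatic gene. Replicate numbers were not treated as pairs, since same-numbered libraries deviated with r from −0.35 to 0.08. Tukey-Kramer tests on FPKM, not adjusted over genes, called Cdkn1b for TGF-β in EpH4 cells as well and Ccne1 between the treated lines, where Myc was not called. Without the filter on low values Ccne1 was called between the treated lines (adjusted p = 0.0496).

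Changes of sign concerned uncalled genes. The TGF-β difference between the lines was −0.28 for Ccnd2 with a pseudocount of 0.1 FPKM, and the TGF-β effect on Ccne1 in EpRas cells was 0.0021 with median-of-ratios scaling. With single libraries left out, the TGF-β effect in EpRas cells ranged from −0.516 to 0.0268 for Ccnd1, −0.0824 to 0.0668 for Ccne1, −0.0823 to 0.549 for Cdc25a and −0.21 to 0.18 for Cdkn1b. The difference between the treated lines ranged from −0.37 to 0.17 for Ccnd1, −0.48 to 0.15 for Cdc25a and −0.21 to 0.14 for Cdkn1a. That between the untreated lines ranged from −0.446 to 0.0316 for Ccnd1, and the interaction from −0.17 to 0.38 for Ccnd1. Without 1 siRNA pair the knockdown effect ranged from −0.258 to 0.0586 for Cdkn1a and −0.0592 to 0.0406 for Myc. A change in a gene below about 1 FPKM, such as Ccnd2 in untransfected EpRas cells, rests on 2 to 20 reads per library.

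Over all genes, the replicate block gave 547 calls in place of 855 for TGF-β in EpH4 cells, 222 in place of 348 in EpRas cells and 31 in place of 73 for the interaction, which had 45 with the trend and 117 without the filter. A fit to the 2 EpRas groups alone gave 45 calls for TGF-β. For transfected cells TGF-β had 1 call without the filter and 82 without the transfection term in place of 379, and the knockdown had 42 without the filter in place of 193. With single libraries, or a transfection, left out the counts ran from 239 to 1085 for TGF-β in EpH4 cells, 127 to 413 in EpRas cells, 6 to 526 in transfected cells, 733 to 2064 and 822 to 2384 between the untreated and treated lines, 10 to 127 for the interaction and 0 to 100 for the knockdown.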
